A study of Mus musculus with 17 samples.

Results

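Transcripts of 9 dual-specificity phosphatases (DUSPs) that act on MAP kinases were followed in cultured mouse ovarian follicles exposed to Tyrphostin-AG1478, an inhibitor of the EGF receptor kinase. The members, Dusp1, Dusp2, Dusp4, Dusp5, Dusp6, Dusp7, Dusp10, Dusp14 and Dusp16, were taken by gene symbol, and all 9 were found among the 25198 genes of the count table. Follicles came from CD1 mice 16 days old, were grown to the antral stage for 8 days in eIVFG (encapsulated in vitro follicle growth), and gave 11 Control and 6 Tyrphostin libraries. Tyrphostin libraries had received 10 µM Tyrphostin-AG1478 in DMSO together with hCG, the gonadotropin used to start ovulation in culture, for 4 h. The labels repeat this treatment text for every library, so whether Control follicles received hCG and DMSO is not given in the sources used here. Batch 1 held 6 Control and 3 Tyrphostin libraries, and batch 2 held 5 Control and 3 Tyrphostin libraries. By their column names the 11 Control libraries fall into 5 sets. The labels give follicles in triplicate per sample, and whether samples came from separate animals or cultures is not stated, so p-values measure the spread between these samples, which may be technical in part.

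MAP kinases are switched on by phosphorylation of a threonine and a tyrosine, and DUSPs of this family remove both phosphates. In the preovulatory follicle, the luteinizing hormone signal acts through EGF-like ligands and the EGF receptor to activate the ERK kinases in granulosa cells. Several DUSP genes are themselves transcribed in response to ERK, so that the phosphatase acts as a brake on the pathway that induces it. Members differ in place and target: Dusp6 and Dusp7 encode cytoplasmic ERK phosphatases, Dusp5 a nuclear ERK phosphatase, Dusp1, Dusp2 and Dusp4 inducible nuclear phosphatases of broader range, and Dusp10 and Dusp16 phosphatases directed mainly at JNK and p38. Dusp14 encodes a small atypical member that lacks the kinase-docking domain of the others.

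The start-site windows of 4 members are shown because Dusp6 and Dusp10 are the members that fell, Dusp1 the abundant member whose change did not pass the test, and Dusp5 a member with a rare pair of motifs. The sequences are from RefSeq (GRCm38.p6), in which 8 of the 9 members had a window. Each is 300 bases, from 250 before to 50 after the annotated start site, written 5′ to 3′ on the gene's strand. Capitals mark matches on either strand to any of 8 motifs: the cyclic AMP response element (CRE), its half-site, the AP-1 site, the ETS site, the CArG box bound by serum response factor, the GC box, the TATA box and the E-box.
Dusp6, chr10:99262981-99263280, plus strand: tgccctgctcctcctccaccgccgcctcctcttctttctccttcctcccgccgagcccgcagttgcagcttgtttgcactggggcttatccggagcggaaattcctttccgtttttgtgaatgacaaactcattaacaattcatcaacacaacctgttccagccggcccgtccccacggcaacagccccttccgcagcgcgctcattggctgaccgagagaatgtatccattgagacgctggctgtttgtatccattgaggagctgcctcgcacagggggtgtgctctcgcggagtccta
Dusp10, chr1:184034131-184034430, plus strand: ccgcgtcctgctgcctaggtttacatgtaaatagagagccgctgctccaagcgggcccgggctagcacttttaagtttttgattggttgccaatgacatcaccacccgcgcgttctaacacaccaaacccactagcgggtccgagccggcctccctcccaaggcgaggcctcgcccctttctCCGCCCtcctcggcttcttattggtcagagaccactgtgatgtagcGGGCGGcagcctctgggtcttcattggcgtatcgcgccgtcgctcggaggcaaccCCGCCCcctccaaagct
Dusp1, chr17:26508423-26508722, minus strand: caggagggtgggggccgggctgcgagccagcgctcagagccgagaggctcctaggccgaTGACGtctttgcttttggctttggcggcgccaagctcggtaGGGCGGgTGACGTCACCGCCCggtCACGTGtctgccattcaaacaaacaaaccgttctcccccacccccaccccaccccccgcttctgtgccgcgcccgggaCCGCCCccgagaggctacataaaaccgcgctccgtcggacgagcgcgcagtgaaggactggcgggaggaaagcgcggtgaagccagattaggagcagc
Dusp5, chr19:53528895-53529194, plus strand: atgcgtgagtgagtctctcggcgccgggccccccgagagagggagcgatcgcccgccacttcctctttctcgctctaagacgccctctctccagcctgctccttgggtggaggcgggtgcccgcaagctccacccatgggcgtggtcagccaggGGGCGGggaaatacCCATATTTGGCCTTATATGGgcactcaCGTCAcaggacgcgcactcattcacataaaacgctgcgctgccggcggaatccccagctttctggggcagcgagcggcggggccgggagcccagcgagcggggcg

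The Dusp1 window held the full palindromic CRE, spelled TGACGTCA, beginning at position -143 from the start site. This motif occurred in 1.79% of the 32851 RefSeq windows of the same length. A further half-site stood at -191. Half-sites, spelled TGACG and present within every full CRE, occurred in 20.8% of windows. The E-box of the Dusp1 window, at -126, is a motif spelled CACGTG that 7.15% of windows held. The Dusp5 window held 2 CArG boxes, beginning at -82 and -72. A CArG box occurred in 1.63% of windows, and at least 2 of them in 0.0183% (6 windows). In the Dusp10 window the only matches were 3 GC boxes, a motif spelled GGGCGG and found in 35.7% of windows. The Dusp6 window matched none of the 8 motifs, which says only that these letters are not in this stretch. No window of a member held the AP-1 site, which was searched as TGANTCA and occurred in 7.81% of all windows. The same was true of the ETS site, searched as CCGGAAGT (3.89% of windows). The TATA box was also without a match in any member, and its letters, TATAAA, occurred in 13.6% of windows. These matches describe the sequence and were not tested for binding.

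Library totals ran from 1820545 to 8291024 counts, so that 3 counts, taken as the limit of detection, equalled 0.336 to 1.64 CPM (counts relative to library size, after TMM scaling). This floor covers counting error only. The granulosa marker list had 8 of 8 genes detected in each group, with a summed level of 39400 to 53200 CPM in Control and 35800 to 52200 CPM in Tyrphostin libraries, nearly all of it Inha. Among those 8, Amh and Foxl2 were near 0 (0.0194 and 0.592 CPM on average in Control). The 9 theca and stroma markers summed to 269 to 2160 CPM (median 512) in Control and 275 to 3090 CPM (median 622) in Tyrphostin libraries, the 8 oocyte markers to 17 to 83.5 CPM and 19.2 to 221 CPM, the 5 endothelial markers to 8.54 to 88.7 CPM and 8.77 to 32.9 CPM, and the 6 immune markers to 17.4 to 462 CPM and 18.3 to 855 CPM. No marker of these lists was at 0 in all libraries of a group. Of 6 granulosa markers tested 4 were called higher and 0 lower in Tyrphostin libraries (edgeR, adjusted p under 0.05), against 4.35% of all genes called higher. They were Cyp19a1, the aromatase that makes estradiol (log2 fold change 2.35 ± 0.22, SE), the nuclear receptor Nr5a2 (2.18 ± 0.16), and the gonadotropin receptors Lhcgr (1.02 ± 0.24) and Fshr (0.83 ± 0.25). Of the theca and stroma markers 9 were tested, of the oocyte markers 7, of the endothelial markers 2 and of the immune markers 2, and 0 were called. The marker lists were chosen with earlier results of these data known, so these counts are description only. The part of these markers in the results below was not tested, apart from the fit without the 3 libraries of highest theca and stroma level given with Dusp1.

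Levels were first compared between members per length, as CPM per kb of merged exons. In Control libraries Dusp6 stood far above the rest, at 181 CPM per kb ± 41.9 (SD, n = 11). Dusp10 followed at 15.7 ± 9.09 and Dusp1 at 14.1 ± 4.41 CPM per kb (SD, n = 11). This pair did not separate, with Dusp10 above Dusp1 in 6 of 11 libraries. Dusp4 (4.54 CPM per kb), Dusp16 (2.77) and Dusp5 (1.82) were lower, and each exceeded the next in 8 or 9 of 11 libraries. Dusp14, Dusp7 and Dusp2 lay below 1 CPM per kb, at means of 0.856, 0.525 and 0.157.

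In Tyrphostin libraries the order of the abundant members differed. Dusp6 still led, at 43.8 CPM per kb ± 13.8 (SD, n = 6), but Dusp1 now came second at 14.9 ± 3.76 CPM per kb and exceeded Dusp10 (5.44 ± 2.08) in 6 of 6 libraries. Dusp16 (3.58 ± 0.662 CPM per kb, SD, n = 6) was above Dusp4 (2.3 ± 1.71) in 5 of 6 libraries. Dusp5 and Dusp14, at 0.785 and 0.594 CPM per kb, did not separate (3 of 6 libraries).

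The make-up of the 9 members' summed level per kb was then described in each library. Its Dusp6 part was 81.7% ± 3.09 (SD, n = 11) in Control libraries. In Tyrphostin libraries it was 60.2% ± 6.6 (SD, n = 6), with ranges of 74.9% to 85% and 48.9% to 66.6% that did not overlap. Dusp1 made 6.52% ± 1.9 and 21.5% ± 5.7, again with separate ranges (4.06% to 9.11% and 15.2% to 28.4%). Dusp16 went from 1.29% ± 0.477 to 5.3% ± 1.92. Dusp10 made 6.93% ± 3.4 and 7.61% ± 2.47, with overlapping ranges. Shares of a sum are tied to each other, so a fall of Dusp6 alone raises the others.

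**Figure D1:**
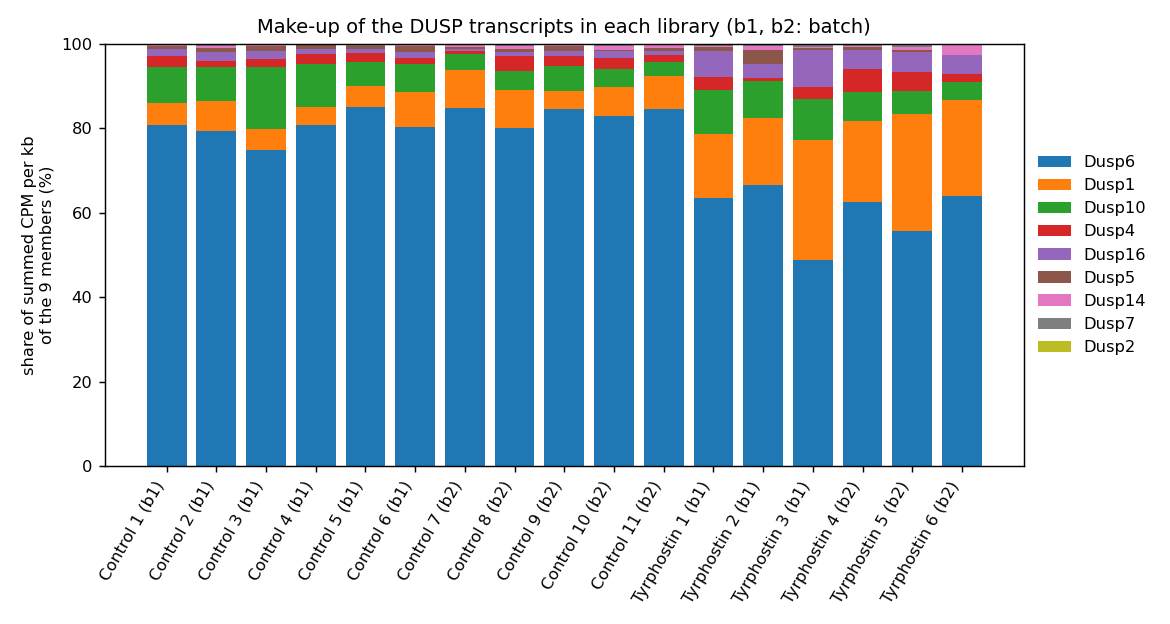
Share of each DUSP in the summed CPM per kb of the 9 members (y axis, %), by library (x axis, with batch b1 or b2). Bars are single libraries: Dusp6 fills 74.9% to 85% of each Control bar and 48.9% to 66.6% of each Tyrphostin bar.

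The main comparison asked which members differed between Tyrphostin and Control libraries, with batch as a term. Dusp6, the cytoplasmic ERK phosphatase, fell to 24.2% of its Control level, and Dusp10, a JNK and p38 phosphatase, fell to 38%. No member passed the test upwards. Of the 9 members 6 had enough counts to be tested, and 2 of these were called lower at an adjusted p under 0.05 (edgeR's quasi-likelihood test, Benjamini-Hochberg over 9603 genes), where 10.6% of all genes tested were called and 6.25% were called lower. By the same test 0 members were called higher, against 4.35% of all genes. At an unadjusted p under 0.05 in edgeR there were 4 lower and 1 higher, where 12.8% of all genes were lower and 10.9% higher. DESeq2 called 4 members lower and 0 higher at an adjusted p under 0.05, where it called 8.22% of all genes lower and 5.46% higher. The members and the lists read below were chosen with earlier results of these data known. Their counts against all genes are thus description only. In these bulk samples, fewer cells of a type and less RNA per cell cannot be told apart.

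Scaling shifts the zero of these values. When libraries were scaled by total counts alone, the median over all genes shifted from 0 to 0.15 (log2) and the calls from 418 higher and 600 lower to 715 higher and 396 lower. The signs of the 6 tested members were alike under TMM, RLE, upper-quartile and total-count scaling, and the 2 calls stood under each.

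**Figure D2:**
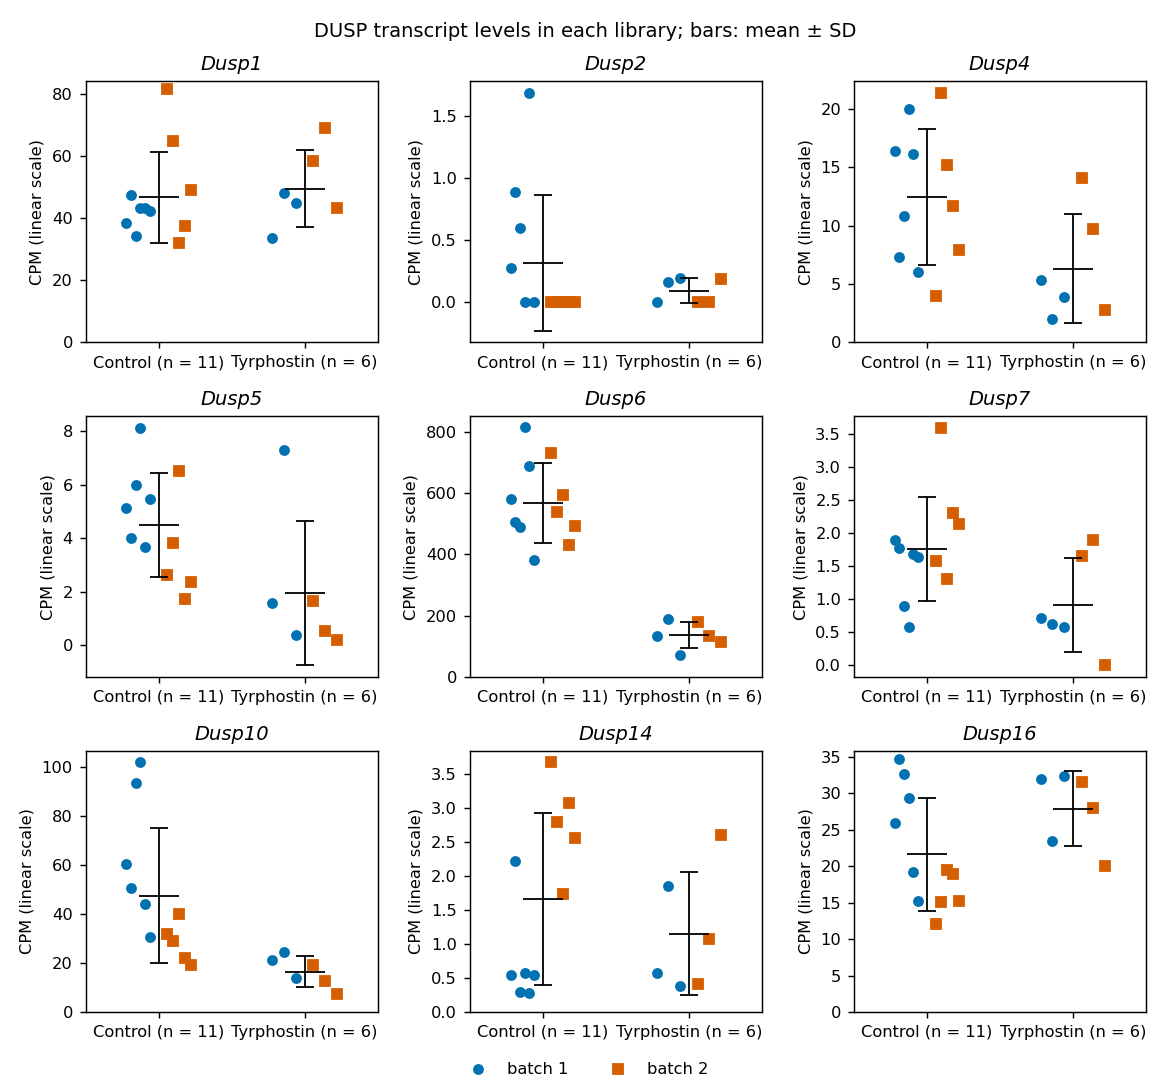
CPM (y axis, linear scale, own range per panel) of the 9 members in each library, by group (x axis), with circles for batch 1 and squares for batch 2. Horizontal marks and bars are the mean ± SD: Dusp6 separates the groups, from 382 to 814 CPM in Control against 72.8 to 191 CPM in Tyrphostin libraries, while the Dusp1 points overlap.

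Dusp6 (chr10:99263231-99267489, plus strand) was the most abundant member, with 373 to 4812 counts per library. Control libraries ranged from 382 CPM (Control 6) through a median of 539 to 814 CPM (Control 4). The Tyrphostin libraries had 133, 191 and 72.8 CPM in batch 1 and 180, 133 and 115 CPM in batch 2. All 6 were below all 11 Control libraries, a separation that 1% of genes tested showed in that direction. Its log2 fold change was -2.05 ± 0.22 (SE), with an interval of -2.51 to -1.59 (edgeR adjusted p = 1.88e-06).

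Within batch 1, 3 members were called lower (Dusp4, Dusp6 and Dusp10) and 0 higher, where 6.73% of genes were called, 3.79% lower and 2.94% higher. Within batch 2, 1 member was called lower (Dusp6) and 0 higher, where 0.621% of genes were called, 0.427% lower and 0.193% higher. In batch 1 the Dusp6 log2 fold change was -2.12 ± 0.32 (SE; edgeR adjusted p = 0.000534). In batch 2 it was -1.96 ± 0.28 (SE; edgeR adjusted p = 0.00887). The interaction of treatment and batch was 0.16 ± 0.41 (SE; unadjusted p = 0.702 in edgeR). The batch 2 call depended on single libraries: omitting Tyrphostin 5 gave -1.92 (adjusted p = 0.0998) and omitting Tyrphostin 6 gave -1.82 (adjusted p = 0.0872). Among Control libraries Dusp6 differed between batches by -0.03 ± 0.22 (SE, log2), a value whose sign varied with scaling.

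Dusp7 (chr9:106368560-106375724), which encodes the other cytoplasmic ERK phosphatase, had at most 32 counts and did not pass the filter over all libraries. Its level was 0.58 to 3.59 CPM (median 1.69) in Control and 0 to 1.89 CPM (median 0.669) in Tyrphostin libraries, with overlapping ranges near the floor. With no filter on low counts its log2 fold change was -0.99 ± 0.5 (SE; edgeR adjusted p = 0.323). Within batch 2, where it passed the filter, it was -0.97 ± 0.73 (SE; edgeR adjusted p = 0.729). A change was not detectable at this depth.

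Dusp5 (chr19:53529145-53541809, plus strand), the nuclear ERK phosphatase, was scarce, with a median of 12 counts per library. Its Control values ran from 1.73 CPM (Control 10) through a median of 4 to 8.12 CPM (Control 4). In Tyrphostin libraries they were 1.58, 7.3 and 0.39 CPM in batch 1 and 1.65, 0.539 and 0.187 CPM in batch 2. Thus 5 of 6 lay below every Control library, and Tyrphostin 2 lay among the high Control values. The share of all genes with 5 of 6 below was not counted. The log2 fold change was -1.2 ± 0.46 (SE) with an interval of -2.16 to -0.25, and it did not pass the test (edgeR adjusted p = 0.104).

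The Dusp5 result turned on that library. Without Tyrphostin 2 its log2 fold change was -2.11 and its adjusted p 0.00409 in edgeR; with all libraries DESeq2 gave 0.0402 and limma-voom 0.0294. Over the 10 alternatives in which it was tested, the adjusted p ran from 0.0294 to 0.4. An opposite-strand gene, AC137853.2, overlaps 547 exon bases of Dusp5. It had at most 5 counts in any library and 29 in all, against 262 for Dusp5, and whether counting used strand is not stated.

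Dusp4 (chr8:34807610-34819894) encodes an inducible nuclear phosphatase. It ranged from 3.94 CPM (Control 7) through a median of 11.7 to 21.4 CPM (Control 8) in Control libraries. Tyrphostin libraries had 5.31, 2.02 and 3.9 CPM in batch 1 but 14.1, 9.7 and 2.8 CPM in batch 2, so that the low values were mostly those of batch 1. Over all libraries the log2 fold change was -1.06 ± 0.4 (SE; edgeR adjusted p = 0.0992), which did not pass.

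By batch, the log2 fold change of Dusp4 was -1.77 ± 0.41 (SE; edgeR adjusted p = 0.0129) in batch 1 and -0.44 ± 0.55 (SE; edgeR adjusted p = 0.866) in batch 2. This does not show a difference between batches, since the interaction was 1.34 ± 0.72 (SE, log2) with an unadjusted p of 0.0795 in edgeR. Leaving out Tyrphostin 2 ended the batch 1 call (adjusted p = 0.0814). Over all libraries the adjusted p was 0.0323 without Control 7, 0.0248 without Tyrphostin 4 and 0.0385 in DESeq2. Over 11 alternatives it ran from 0.00539 to 0.25. The lowest was from a fit blocked by replicate number, whose treatment effect rested on batch 1 libraries.

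Dusp1 (chr17:26505591-26508472, minus strand), the member whose window holds the full CRE, is an immediate early gene induced by growth factors, cyclic AMP and stress. Its Control values ran from 32.1 CPM (Control 9) through a median of 43.2 to 81.6 CPM (Control 7). Tyrphostin libraries had 33.7, 47.9 and 44.7 CPM in batch 1 and 58.4, 69 and 43.3 CPM in batch 2, all within the Control range. The log2 fold change was 0.06 ± 0.18 (SE; edgeR adjusted p = 0.889). Its 95% interval, -0.31 to 0.42, does not reach the sizes estimated for Dusp6 or Dusp10.

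The 3 highest Dusp1 values, in Control 7 (81.6 CPM), Tyrphostin 5 (69 CPM) and Control 8 (64.9 CPM), fell in the 3 libraries with the highest summed theca and stroma markers (2160, 3090 and 2030 CPM). The same 3 had the highest summed immune markers (301, 855 and 462 CPM). All 3 were in batch 2, and by column name Control 7 and Control 8 belong to the same set. Among Control libraries Dusp1 differed between batches 2 and 1 by 0.38 ± 0.22 (SE, log2, edgeR adjusted p = 0.261). The part of batch and set in this overlap was not tested. Without Control 7, Control 8 and Tyrphostin 5 the log2 fold change of Dusp1 was 0.16 (edgeR adjusted p = 0.589). Those of Dusp4, Dusp5 and Dusp16 were then -1.2, -1.05 and 0.3, with none passing the test. Stress and heat shock genes summed to 196 to 503 CPM (median 371) in Control and 187 to 262 CPM (median 218) in Tyrphostin libraries. Of 5 such genes tested 1 was called, where 10.6% of all genes tested were called. It was Hsph1, a chaperone of the Hsp110 family (log2 fold change -0.91 ± 0.2, SE, edgeR adjusted p = 0.00484). The part of stress in the Dusp1 values was not tested.

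Dusp2 (chr2:127336159-127338377), an inducible nuclear phosphatase best known from lymphocytes, was close to absent. It had 0 to 6 counts per library and 16 in all, and the 5 Control libraries of batch 2 had 0, below a floor of 0.336 to 1.3 CPM. With no filter its log2 fold change was -0.89 ± 1.24 (SE; edgeR adjusted p = 0.771), so a change was not detectable at this depth.

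Dusp10 (chr1:184034381-184075636, plus strand) was the second member to fall. In batch 1 its Control values lay between 30.7 CPM (Control 6) and 102 CPM (Control 4), and the Tyrphostin libraries had 21.5, 24.6 and 13.9 CPM, all lower. In batch 2 Control libraries had 19.2 to 40 CPM and Tyrphostin libraries 19.2, 12.7 and 7.46 CPM, so the ranges met at 19.2 CPM. Each Tyrphostin library was below the Control libraries of its own batch before rounding, a separation that 2.21% of genes tested showed. Of these, 4 of 6 were below all 11 Control libraries, and the share of all genes with 4 of 6 below was not counted. The log2 fold change of Dusp10 was -1.39 ± 0.27 (SE, edgeR adjusted p = 0.00133).

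Batches also differed in Dusp10 without the inhibitor. Control libraries averaged 63.5 CPM ± 28.4 (SD, n = 6) in batch 1 and 28.5 CPM ± 8.21 (SD, n = 5) in batch 2, a log2 difference of -1.15 ± 0.29 (SE; edgeR adjusted p = 0.0158), where 14% of 6680 genes were called and 6.77% were lower in batch 2. Within batch 1 the treatment effect on Dusp10 was -1.67 ± 0.35 (SE; edgeR adjusted p = 0.00771). Within batch 2 it was -1.1 ± 0.34 (SE; edgeR adjusted p = 0.203), which did not pass. The interaction was 0.57 ± 0.5 (SE, log2; unadjusted p = 0.269 in edgeR).

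Dusp16 (chr6:134715468-134807063, minus strand), also directed at JNK and p38, had an estimate above 0. Control libraries ran from 12.1 CPM (Control 7) through a median of 19.2 to 34.7 CPM (Control 2), and Tyrphostin libraries from 20 CPM through 29.8 to 32.4 CPM. In batch 2 the 3 Tyrphostin libraries (31.6, 28 and 20 CPM) were above every Control library of that batch (12.1 to 19.5 CPM). In batch 1 the ranges overlapped. The share of all genes with such a separation in a single batch was not counted, so it only describes the values. The log2 fold change was 0.43 ± 0.19 (SE) with an interval of 0.04 to 0.82, and it did not pass the test (edgeR adjusted p = 0.16). Within batches it was 0.16 ± 0.26 and 0.72 ± 0.25 (SE), with adjusted p of 0.788 and 0.268 in edgeR.

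Dusp14 (chr11:84048033-84069256, minus strand) had 1 to 25 counts per library and passed the filter within batch 2 but not over all libraries. Control libraries of batch 1 had 0.282 to 2.22 CPM and those of batch 2 had 1.74 to 3.67 CPM, while Tyrphostin libraries had 0.39 to 2.61 CPM. With no filter its log2 fold change over all libraries was -0.39 ± 0.5 (SE; edgeR adjusted p = 0.744). Within batch 2 it was -1.05 ± 0.58 (SE; edgeR adjusted p = 0.578), which did not pass.

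**Figure D3:**
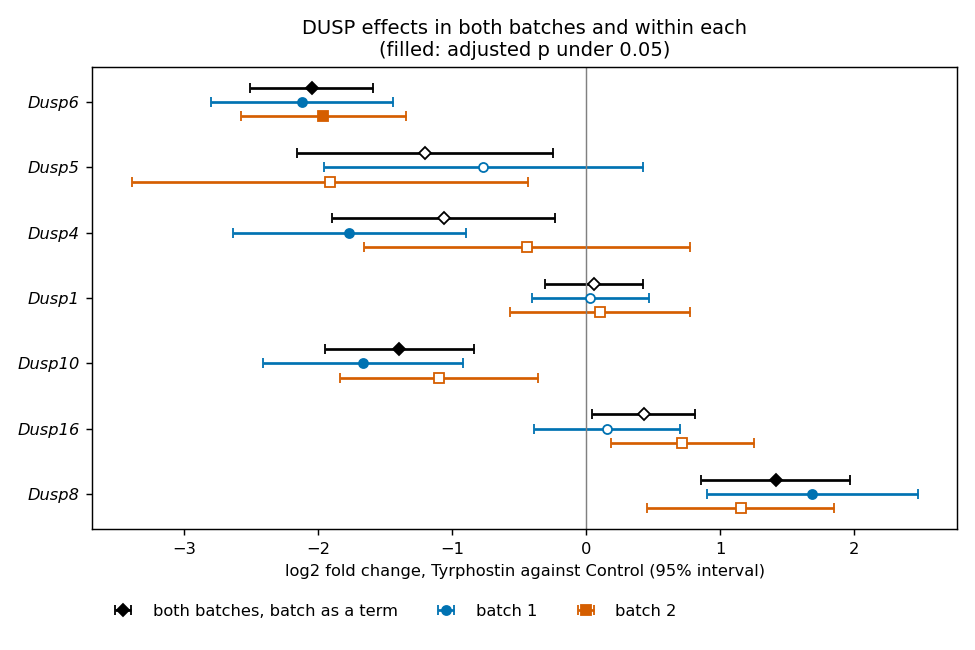
Log2 fold change of Tyrphostin against Control (x axis) with 95% intervals for the 6 tested members and Dusp8 (y axis), over both batches with batch as a term and within each batch; filled symbols have an adjusted p under 0.05. Dusp6 sits near -2 in all 3 fits, Dusp1 near 0, and Dusp8 above 0.

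Other phosphatases of the class were read from the same fit. Of 16 further dual-specificity genes 7 were tested, with 1 called higher and 0 lower, against 4.35% and 6.25% of all genes. Their median log2 fold change was 0.01, against 0 over all genes. The gene called was Dusp8, which encodes a JNK and p38 phosphatase, as Dusp10 and Dusp16 do. Dusp8 had 2.43 to 27.6 CPM (mean 10.3) in Control and 12.8 to 38.5 CPM (mean 26.8) in Tyrphostin libraries, with overlapping ranges. Within each batch the Tyrphostin libraries were above all Control libraries, as for 1.12% of genes tested. Its log2 fold change was 1.41 ± 0.27 (SE; edgeR adjusted p = 0.00117). Within batches it was 1.69 (edgeR adjusted p = 0.00958) and 1.15 (0.148), and the batch 1 call was lost without Tyrphostin 2 (1.31; 0.0953). The 3 phosphatases directed mainly at JNK and p38 thus had log2 fold changes of -1.39 (Dusp10), 0.43 (Dusp16) and 1.41 (Dusp8).

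For Dusp3, a small atypical phosphatase, the log2 change was 0.81 ± 0.28 (SE) and did not pass (edgeR adjusted p = 0.068), with its highest values in Tyrphostin 5 (99.2 CPM) and Tyrphostin 4 (49 CPM). Dusp22, another atypical member, had -0.33 ± 0.23 (SE; edgeR adjusted p = 0.406). Dusp9, the third cytoplasmic ERK phosphatase, had at most 10 counts and did not pass the filter. With no filter its log2 fold change was -0.1 ± 0.66 (SE; edgeR adjusted p = 0.969). Of 9 other phosphatases that can act on MAP kinases, such as subunits of PP2A, 7 were tested. By edgeR 0 were called, against 10.6% of all genes, and their median log2 fold change was 0. The lowest estimate was -1.29 ± 0.44 for Ptpn5 (SE, edgeR adjusted p = 0.0606). The highest was 0.64 ± 0.64 for Ppm1d (SE, edgeR adjusted p = 0.614).

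The kinases on which the members act were read against the 10.6% of all genes called. Of 13 genes of the ERK cascade, all tested, 1 was called higher and 1 lower, with a median log2 fold change of -0.16. The gene called lower was Mapk3, which encodes ERK1 (-0.96 ± 0.27, SE; edgeR adjusted p = 0.0248), and the gene called higher was Ksr1, a scaffold of the cascade (1 ± 0.29, SE; edgeR adjusted p = 0.0262).

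Of 13 genes of the JNK, p38 and ERK5 cascades 8 were tested, with 1 higher, 1 lower and a median of 0.13. Mapk9, which encodes the JNK2 kinase, rose by 0.88 ± 0.23 (log2, SE; edgeR adjusted p = 0.0169). Map2k3, a kinase that activates p38, had -0.8 ± 0.17 (SE; edgeR adjusted p = 0.00276). Mapk8 (JNK1) and Mapk14 (p38 alpha) had 0.12 ± 0.22 and 0.51 ± 0.34 (SE), neither of which passed.

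Genes that ERK induces, other than DUSPs, were read next. Of 21 listed 17 were tested: 9 were called lower and 0 higher, against 6.25% and 4.35% of all genes. All 17 estimates were below 0, from -2.59 to -0.06 with a median of -0.99. Of all 9603 genes tested 4800 had an estimate below 0. The list was chosen with earlier results of these data known, so its direction is description only. The lowest p-values belonged to Errfi1, a feedback inhibitor of the EGF receptor (-2.59), the AP-1 genes Fosl1 (-2.38) and Junb (-1.48), and the zinc-finger factors Egr1 (-1.71) and Egr3 (-2.16). Among the negative regulators Spry2, Spry4 and Spred1 the log2 fold changes were -1.12, -0.56 and -0.76, and none passed (edgeR adjusted p = 0.111, 0.0966 and 0.0651). Spred2 and Spred3 had -0.36 and -0.79 and did not pass either (edgeR adjusted p = 0.435 and 0.17).

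Immediate genes known to respond to cyclic AMP, as Dusp1 does, gave 1 higher and 1 lower among 9 tested, with a median of -0.27. Of all genes 4.35% were called higher and 6.25% lower. The list was chosen with earlier results of these data known, so its counts are description only. In this list too most estimates, 8 of 9, were below 0. Nr4a1, an orphan nuclear receptor, rose by 0.84 ± 0.22 (log2, SE; edgeR adjusted p = 0.0159). The clock gene Per1 had -1.29 ± 0.23 (log2, SE; edgeR adjusted p = 0.000542). Crem and Sik1, both direct targets of CREB, had -0.1 ± 0.2 and -0.27 ± 0.18 (log2, SE) and did not pass. Nr4a2, Nr4a3, Pde4b, Pde4d and Rgs2 had log2 fold changes of -0.18, -0.25, -0.49, -0.45 and -0.48 and did not pass either.

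**Figure D4:**
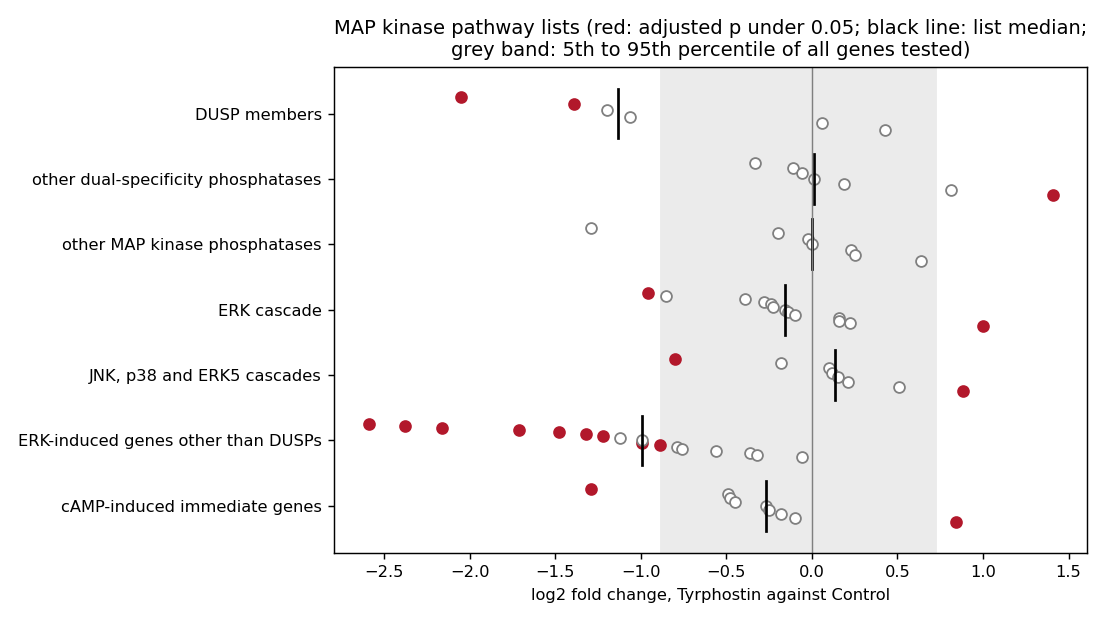
Log2 fold change of Tyrphostin against Control (x axis) for the tested genes of 7 lists (y axis); each point is a gene, red at an adjusted p under 0.05, with list medians as black lines and the 5th to 95th percentile of all genes (-0.88 to 0.72) as a grey band. Most points of the ERK-induced list and of the cyclic AMP list lie to the left of 0, as do Dusp6 and Dusp10. The kinase lists centre near 0.

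Similarity of pattern was measured by Pearson's r of log2 CPM over the 17 libraries after batch means were subtracted, which leaves the treatment effect in. The 5 genes most like Dusp6 were Errfi1 (r = 0.98), Stx6, a membrane-fusion syntaxin (0.97), Fam110c (0.97), Tnfaip6, a hyaluronan-binding protein of the expanding cumulus (0.96), and Itga5, an integrin subunit (0.95). Over the 11 Control libraries alone the 5 were Mocs2 (0.97), Svbp (0.95), Emc6 (0.94), Tmem59 (0.93) and Errfi1 (0.92). Errfi1 was thus in both sets. The Control libraries share sets and scaling, and these are the highest of 9603 values, so they only describe the pattern.

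For Dusp1 the same measure gave Tctn1 (r = 0.83), Commd1 (0.82), Ephx1 (0.81), Esam (0.8) and Osbp (0.79) over 17 libraries. Over the 11 Control libraries it gave Corin (0.94), Taldo1 (0.91), Add3 (0.91), Akr1cl (0.9) and Dync1i1 (0.9). No gene stood in both sets. These too are the highest of 9603 values, so they only describe the pattern.

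Some members also varied together within groups. After group and batch means were subtracted, Dusp6 correlated with Dusp5 (r = 0.71) and Dusp10 (r = 0.68), and Dusp5 with Dusp10 (r = 0.66). These values are over 17 libraries that share depth and scaling. Tyrphostin 2 was the highest Tyrphostin library for Dusp5, Dusp6 and Dusp10 (7.3, 191 and 24.6 CPM). Dusp4 correlated with Dusp6 at 0.19 and with Dusp5 at 0.2. For Dusp16 r was 0.55 with Dusp10, 0.53 with Dusp4 and -0.02 with Dusp6. Values for Dusp1 with the other tested members lay between -0.31 (Dusp16) and 0.27 (Dusp6). Within single libraries, the ratio of Dusp6 to Dusp1 in CPM per kb ran from 8.79 to 19.9 in Control and from 1.72 to 4.21 in Tyrphostin libraries. The ratio of Dusp6 to Dusp10 ran from 5.08 to 25 and from 5.1 to 14.9, so these ranges overlapped.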

How the data were processed

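The authors deposited raw read counts, as whole numbers, for 25198 gene symbols in 17 libraries, and 3576 of these genes were without a count. STAR, HTSeq and build GRCm38 are named without versions per the submitters' processing notes; annotation, strandedness and filters are not given in the sources used here. Follicle lysate was extracted with RNA-SPRI beads and converted by Smart-Seq2, per the labels' protocols. Library totals were 1820545 to 8291024 counts. Replicates were compared in 31 pairs within group and batch, and none was a copy (chi-square over its degrees of freedom, 11.8 to 84.1).

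Tests used edgeR 4.0.16 in R 4.3.3: filterByExpr on treatment, TMM scaling, robust quasi-likelihood fits and Benjamini-Hochberg adjustment over all genes tested, at 0.05, with batch as a term. The SE was the log2 fold change divided by the square root of F. Intervals are 95%. Effects were also fitted within batches, as an interaction, and between batches of Control libraries. Alternatives were other scalings, DESeq2 1.42.0, limma-voom (limma 3.58.1), other filters (none, or 5 CPM in 6 libraries), no batch term, Control libraries summed into 5 sets by name, a replicate block, and omission of each library. A fit without 3 libraries of high theca and stroma level was added after seeing the data. The code was tested on simulated counts.

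The members and lists were chosen with earlier results of these data known. Named besides the members were up to 5 called genes of lowest p per pathway list, core MAP kinases and typical MAP kinase phosphatases whatever their change, and the 5 genes most like Dusp6 and Dusp1 (log2 CPM, prior count 2). The values of 1 core kinase are not reported here. Outside this rule, Spry2, Spry4, Spred1, Spred2, Spred3, Crem, Sik1, Nr4a2, Nr4a3, Pde4b, Pde4d, Rgs2, Ptpn5, Ppm1d, Amh, Foxl2 and Inha were named after their values were seen. Exon lengths were from GENCODE M21 and windows and positions from RefSeq, both GRCm38.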

Additional observations from a re-analysis of the deposited data

Results flagged for a closer look

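Each member was searched, in CPM, for a library far from the others among the 6 Control libraries of batch 1, the 5 of batch 2 and the 6 Tyrphostin libraries. This made 26 groups with any count, of which 2 had such a library. Chance gives about 1.3. Dusp5 reached 7.3 CPM in Tyrphostin 2, against 0.187 to 1.65 CPM in the other Tyrphostin libraries. Dusp14 reached 2.22 CPM in Control 2, against 0.282 to 0.58 CPM in the other Control libraries of batch 1. These values rest on 10 counts in Control 2 and 1 to 2 counts in each of the others.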

How the results depend on the processing

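Dusp6 and Dusp10 kept their direction and their calls in 11 of 11 alternatives and on omission of each of the 17 libraries, with log2 fold changes over the alternatives of -2.09 to -1.89 and -1.74 to -1.23; where no cause is named below, the cause was not tested. Members called lower numbered 2, against 4 in DESeq2 and 2 to 3 when a library was left out. Genes called numbered 1018, against 619 without the batch term and 708 with Control libraries summed into 5 sets by name. The replicate block, a fit with fewer samples, gave 624, and leaving out a library gave 708 to 1314. Within batch 1 the 634 calls became 394 (without Tyrphostin 2) to 687. Within batch 2 the 61 calls became 221 without Control 7 and 28, 31, 32 and 40 without Control 8, 9, 10 and 11, and 35, 18 and 11 without Tyrphostin 4, 5 and 6. The interaction gave 0 genes by edgeR and by DESeq2 (342 at an unadjusted p under 0.05) and 79 with no filter. Between Control batches 937 calls became 637 to 1025. Near 0, signs varied: Dusp1 gave 0 to 0.15 when a library was left out, -0.06 to 0.17 within batch 1 and -0.07 to 0.3 within batch 2; between Control batches Dusp4 and Dusp6 gave 0.15 and 0.14 with total counts, and -0.41 to 0.18 and -0.12 to 0.09 when a library was left out. Numbers 1 to 6 are shared by Control and Tyrphostin labels, but Control 4 to 6 are in batch 1 and Tyrphostin 4 to 6 in batch 2. The samples were not treated as pairs. Deviations of same-numbered libraries correlated at 0.32, 0.08, 0.05, 0.1, 0.03 and 0.11, and 2 of 6 Tyrphostin libraries correlated best with their own number. For numbers 4 to 6 this check compared libraries of different batches. With the replicate block Dusp16 turned to -0.09 and Dusp4 was called (-1.64, adjusted p = 0.00539 in edgeR). Because numbers 4 to 6 cross batches, the treatment effect of that fit rested on numbers 1 to 3, all in batch 1. It is thus an alternative for batch 1 alone. Depth limits Dusp2, Dusp7 and Dusp14, which had medians of 0, 6 and 4 counts.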
